A study of Mus musculus with 6 samples.

Results

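The genes described here are interferon-stimulated genes, a set of 37 genes that cells switch on when they receive an interferon signal, measured in mouse skin after 7 days of cytokine release from a subcutaneous pump. Members were found as the probe sets (short probe groups on the array that report 1 transcript) whose annotation names only 1 of the listed genes. Of the 37, 32 have such a probe set, and 31 were at or above the array's own median signal on at least 1 of the 6 arrays, out of 7943 genes that met the same condition and 12393 with a probe set of their own. Isg15, Ifi44, Oas1g, Xaf1 and Ddx58 have no probe set that names only them and are not analysed here. Mx2, an antiviral GTPase, stayed below the median on every array, at 34.3 in PBS local, 58.8 in PBS distal, 68.4 under IL-13, 87.8 under TSLP, and 75.4 and 54.2 in the TGF-beta mice, and it enters no count.

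All mice were of the C57BL/6 strain, and no genotype or age is stated in the labels. The pumps held PBS, IL-13, TSLP or TGF-beta. IL-13 is a product of type 2 helper T cells, TSLP is released by epithelium and primes dendritic cells, and TGF-beta drives matrix production and restrains immune cells. There is 1 array each for skin at the pump outlet under PBS (PBS local), IL-13 and TSLP, 1 for abdominal skin far from a PBS pump (PBS distal), and 2 for skin at the outlet under TGF-beta, from mouse 1 and mouse 2. Neither the cytokine dose nor whether the PBS pieces share a mouse is stated in the labels. A group of 1 array has no replicate error, so its differences are descriptions of those arrays.

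Type I interferons bind a receptor that activates JAK1 and TYK2, and a complex that holds STAT2 and IRF9 then binds a promoter element called the ISRE. Interferon-gamma uses its own receptor and acts through an element called GAS, and Irf1 is a classical gene switched on by this route. The products sense viral nucleic acid, block viral replication, tag proteins and feed back on the pathway, and in skin they are known from antiviral defence and inflammatory disease.

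Promoters were read from RefSeq windows of the mouse assembly GRCm38.p6 that run from 250 bases before to 50 bases after a start site, and 28 of the 37 listed genes have at least 1 window. The ISRE was searched as GAAANNGAAA and GAS as TTCNNNGAA, on both strands, so an ISRE on the opposite strand is written with TTTC in place of GAAA. An ISRE match was found in 12 of the 28 genes (42.9%), against 3.99% of the 27025 genes in the table, and a GAS match in 10 of the 28 (35.7%), against 9.55%. The related spacing bound by STAT6, the factor downstream of IL-13, was searched as TTCNNNNGAA and was found in 5 of the 28 (17.9%), against 8.01%. In 3 of the members' windows an ISRE match overlapped a GAS or STAT6 match. A match is a run of letters and not a bound site, and the arrays hold no binding data.

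The first 5 windows below belong to the members with an ISRE match that lay highest under TSLP relative to PBS local, and Ifitm3 is the member that lay lowest. They are written 5′ to 3′ on the gene's own strand, with ISRE matches in capitals. Ifit3 (chr19:34583279-34583578, plus strand) and Ifit1 (chr19:34640639-34640938, plus strand) encode proteins that bind foreign RNA, and both hold the same pair of matches, TTTCACTTTC and TTTCAGTTTC. These begin 156 and 122 bases before the start site of Ifit3 and 104 and 85 bases before that of Ifit1. Rsad2 (chr12:26456403-26456702, minus strand) encodes viperin, Trim21 (chr7:102565433-102565732, minus strand) an antibody receptor and ubiquitin ligase, Bst2 (chr8:71537423-71537722, minus strand) tetherin, and Ifitm3 (chr7:141010695-141010994, minus strand) a membrane protein that blocks viral entry.
Ifit3: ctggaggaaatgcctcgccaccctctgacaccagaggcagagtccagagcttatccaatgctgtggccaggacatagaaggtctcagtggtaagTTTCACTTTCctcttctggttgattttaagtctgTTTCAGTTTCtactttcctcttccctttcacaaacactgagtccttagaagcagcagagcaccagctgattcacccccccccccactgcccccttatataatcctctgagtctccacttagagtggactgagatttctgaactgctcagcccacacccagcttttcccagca
Ifit1: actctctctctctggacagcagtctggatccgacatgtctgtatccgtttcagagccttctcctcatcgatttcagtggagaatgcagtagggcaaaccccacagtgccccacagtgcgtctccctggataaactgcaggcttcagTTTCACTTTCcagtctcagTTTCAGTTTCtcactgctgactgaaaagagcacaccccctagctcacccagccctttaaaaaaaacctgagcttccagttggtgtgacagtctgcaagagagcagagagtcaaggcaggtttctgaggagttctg
Rsad2: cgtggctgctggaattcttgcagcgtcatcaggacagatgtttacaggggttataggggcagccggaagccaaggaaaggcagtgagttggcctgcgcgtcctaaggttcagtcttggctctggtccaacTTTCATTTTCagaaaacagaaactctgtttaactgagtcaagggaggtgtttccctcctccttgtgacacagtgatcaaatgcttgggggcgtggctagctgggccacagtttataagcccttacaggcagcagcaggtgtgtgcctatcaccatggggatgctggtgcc
Trim21: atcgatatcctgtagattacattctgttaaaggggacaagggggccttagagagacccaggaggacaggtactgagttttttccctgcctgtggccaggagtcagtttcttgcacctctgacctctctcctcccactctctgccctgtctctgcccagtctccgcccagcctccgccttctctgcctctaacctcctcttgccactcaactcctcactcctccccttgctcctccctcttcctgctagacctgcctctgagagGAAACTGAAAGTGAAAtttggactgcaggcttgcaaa
Bst2: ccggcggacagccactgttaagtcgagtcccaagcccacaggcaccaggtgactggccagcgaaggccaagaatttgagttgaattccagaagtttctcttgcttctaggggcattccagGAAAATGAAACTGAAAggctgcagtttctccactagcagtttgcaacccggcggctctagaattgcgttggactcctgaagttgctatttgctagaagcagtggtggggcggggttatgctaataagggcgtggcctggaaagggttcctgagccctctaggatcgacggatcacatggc
Ifitm3: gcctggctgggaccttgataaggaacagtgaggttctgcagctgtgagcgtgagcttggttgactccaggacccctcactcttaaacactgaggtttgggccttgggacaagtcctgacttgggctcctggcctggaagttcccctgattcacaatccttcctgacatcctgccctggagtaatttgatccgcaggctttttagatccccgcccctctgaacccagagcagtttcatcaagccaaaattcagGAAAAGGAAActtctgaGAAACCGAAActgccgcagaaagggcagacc

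The Irf1 window (chr11:53769764-53770063, plus strand) is shown beside them because Irf1 is set apart in the comparison of TSLP with IL-13, and it was chosen after its values were seen. Its capitals mark a GAS match that begins 90 bases before the start site, and it holds no match to the ISRE letters searched.
Irf1: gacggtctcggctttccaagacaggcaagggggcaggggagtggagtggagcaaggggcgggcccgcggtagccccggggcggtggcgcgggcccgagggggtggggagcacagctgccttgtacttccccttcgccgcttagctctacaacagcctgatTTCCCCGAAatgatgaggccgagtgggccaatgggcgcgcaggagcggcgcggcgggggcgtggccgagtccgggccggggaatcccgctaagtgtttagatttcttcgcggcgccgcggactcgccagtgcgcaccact

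The signals are linear intensities that had been scaled to a common level before deposit, with array medians between 160 and 171. Differences are given on the scale log2(signal + 27.4), where 1 is 2-fold for a bright gene and less than the true change for a dim one. Keratinocyte markers were bright on every array, with 6 of 6 measured markers counted and summed signals from 38636 to 58774. Some arrays stood apart in other tissue. The summed signal of 5 exocrine pancreas genes was 2619 in PBS local, 506 in PBS distal, 8313 under IL-13, 7322 under TSLP, and 1234 and 6035 in the TGF-beta mice. Hair follicle genes summed to 35205 in TGF-beta mouse 2 and to between 1030 and 2902 elsewhere. Because whole skin was measured, fewer cells of a type and less RNA per cell cannot be told apart.

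Under TSLP nearly the whole set lay above PBS local skin. Of the 31 members, 30 had a positive difference, against 48.6% of all genes, and the median was 0.52, against -0.01 over all genes. The exception was Ifitm3, at -0.06. At least 2-fold higher were 5 members, Ifit2, Ifi47, Irf7, Ifit3 and Irf1, against 0.995% of all genes, and 0 were as far below. The TSLP array had the highest signal of the 6 arrays for 25 of the 31, against 18.8% of all genes. Of these 25, Stat2 passed the filter on the TSLP array alone, and Eif2ak2 on the TSLP and IL-13 arrays alone. Their place in the TSLP counts therefore partly follows from the filter. The remaining highest signals were 4 on the IL-13 array, against 9.09% of all genes, for Ifi204, Rsad2, Bst2 and Isg20. Ifi27l2a was highest in PBS distal, the highest array of 27.0% of all genes, and Ifitm3 in TGF-beta mouse 1, the highest of 9.98%. PBS local was the lowest array for 6 members, against 9.04% of all genes, so for 25 of the 31 another array lay lower than the control.

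**Figure D1:**
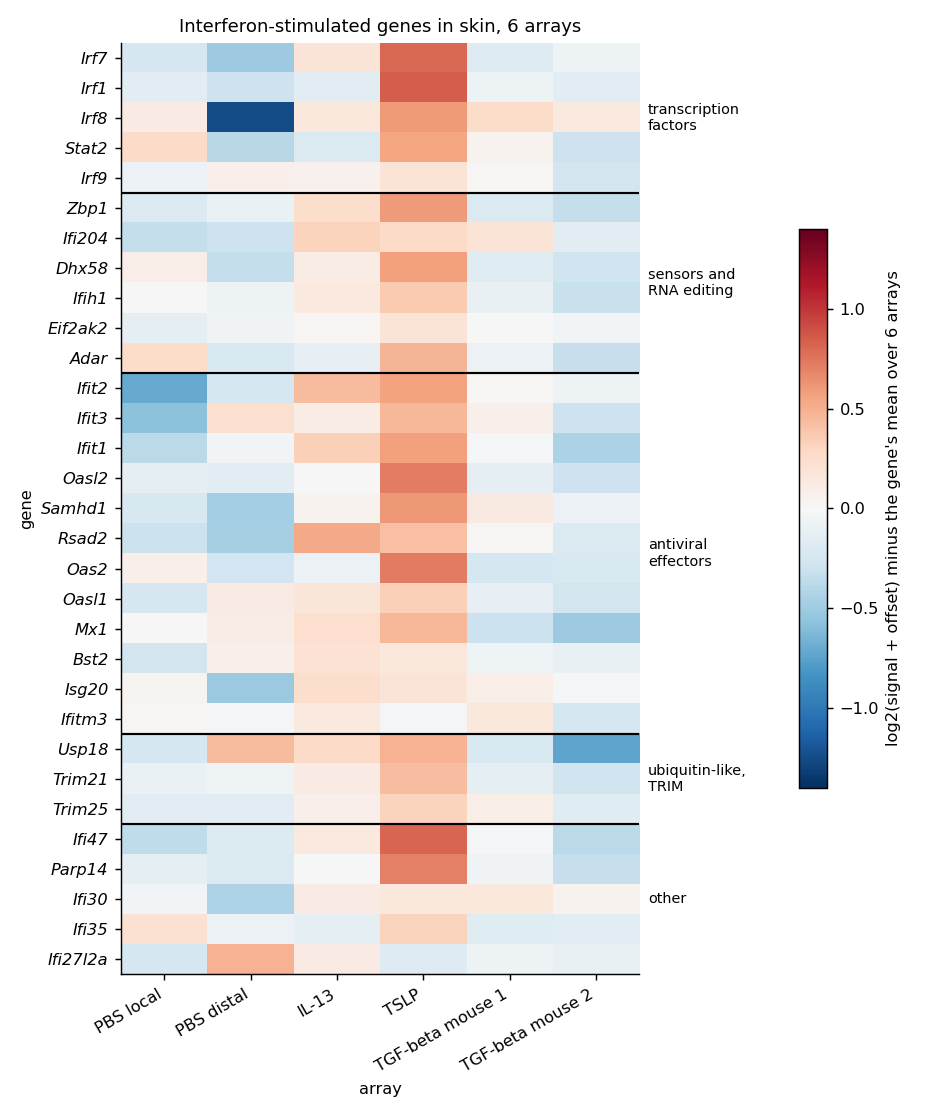
Heat map of the 31 counted members (rows, grouped by role) on the 6 arrays (columns), as log2(signal + 27.4) minus the gene's own mean over the 6 arrays, with red above and blue below that mean. The TSLP column holds the highest value of 25 genes, and the darkest blue cell is Irf8 in PBS distal skin.

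The transcription factors carry the signal onward, and all 5 lay above PBS local under TSLP, against 48.6% of all genes, with a median of 0.49. Stat2 is among the 5, and its direction partly follows from the filter. Irf1, an activator of many interferon-gamma targets, had signals of 662 in PBS local, 601 in PBS distal, 660 under IL-13, 1360 under TSLP, and 703 and 659 in the TGF-beta mice. The TSLP array stood far above the other 5, which lay close together, and the difference from PBS local was 1.01. Irf7, the factor that amplifies type I interferon production, had 488 in PBS local, 399 in PBS distal, 661 under IL-13, 1033 under TSLP, and 508 and 550 in the TGF-beta mice. Here too TSLP was highest, by 1.04 over PBS local, with IL-13 second at 0.42.

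Irf8, a factor of myeloid and dendritic cell development, had 602 in PBS local, 218 in PBS distal, 617 under IL-13, 856 under TSLP, and 670 and 616 in the TGF-beta mice. What sets Irf8 apart is the low distal array, with a difference of -1.36 from PBS local, while TSLP was 0.49 above. Irf9 and Stat2, partners in the factor that binds the ISRE, moved less under TSLP, at 0.27 and 0.29. Stat2 was dim, between 92.7 and 203, and reached its array's median on 1 array, that of TSLP.

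The sensors of viral nucleic acid lay above PBS local in 6 of 6 cases under TSLP, against 48.6% of all genes, with a median of 0.43. None was at 2-fold on the probe set that stands for it. Eif2ak2 is among the 6, and its direction partly follows from the filter. Zbp1, which senses left-handed nucleic acid and can start cell death, was highest in the group at 0.80, with 404 in PBS local, 437 in PBS distal, 559 under IL-13, 723 under TSLP, and 403 and 367 in the TGF-beta mice. A second Zbp1 probe set lay at 1.21 under TSLP. Ifi204, a DNA sensor of the IFI16 family, was at 0.61, Dhx58 (LGP2), a regulator of RNA sensing, at 0.48, and Ifih1 (MDA5), a sensor of long double-stranded RNA, at 0.37. Eif2ak2 (PKR), a kinase that stops translation, was at 0.33 on the probe set that stands for it and at -0.26 on the other, which was about as bright, so its direction is unsettled. It was the sole member whose second counted probe set had the opposite sign under TSLP, out of 7 such probe sets. Against PBS local, the opposite sign was found for 1 of the 7 under IL-13, 3 under TGF-beta and 2 in PBS distal. Adar, which edits double-stranded RNA, was at 0.22.

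The antiviral effectors had the highest median of the groups under TSLP, 0.69, with 11 of 12 above PBS local, against 48.6% of all genes. Ifit2, which binds viral RNA and limits its translation, had 323 in PBS local, 456 in PBS distal, 748 under IL-13, 817 under TSLP, and 548 and 515 in the TGF-beta mice. PBS local was the lowest of the 6 arrays, and all 5 others lay above it, TSLP by 1.27 and IL-13 by 1.14. Ifit3 had 607 in PBS local, 1080 in PBS distal, 991 under IL-13, 1273 under TSLP, and 965 and 748 in the TGF-beta mice. PBS local was again lowest, and against PBS distal the TSLP difference of 1.04 shrank to 0.23. Ifit1 stopped just short of 2-fold at 0.95, with 675 in PBS local, 863 in PBS distal, 1122 under IL-13, 1333 under TSLP, and 869 and 644 in the TGF-beta mice.

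Among the other effectors, Oasl2, an OAS-like protein, was at 0.84 under TSLP, Samhd1, which depletes nucleotides, at 0.82, and Rsad2, which makes a chain-terminating nucleotide, at 0.73. Oas2, which makes the activator of RNase L, was at 0.66, Oasl1, an OAS-like regulator of Irf7, at 0.57, Mx1, an antiviral GTPase, at 0.47, Bst2, which holds budding virus at the cell surface, at 0.41, and Isg20, an RNA exonuclease, at 0.14. Oas2 and Oasl2 shared a simple pattern, with the TSLP array at 1043 and 1083 and the other 5 arrays between 509 and 652 for Oas2 and between 524 and 648 for Oasl2. Rsad2 had another shape, with 1720 in PBS local, 1539 in PBS distal, 3100 under IL-13, 2862 under TSLP, and 2155 and 1853 in the TGF-beta mice, so that IL-13 and TSLP were close together at the top. Samhd1 had 1107 in PBS local, 921 in PBS distal, 1346 under IL-13, 1979 under TSLP, and 1412 and 1225 in the TGF-beta mice, with TSLP highest and PBS distal lowest.

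Usp18, which removes ISG15 from proteins and damps the type I receptor, was at 0.73 under TSLP, and the ligases Trim21 and Trim25 were at 0.52 and 0.46. Usp18 varied widely, with 504 in PBS local, 827 in PBS distal, 730 under IL-13, 853 under TSLP, and 516 and 348 in the TGF-beta mice, so the distal array nearly reached TSLP. In the last group, Ifi47, a GTPase of the immunity-related family, had 853 in PBS local, 955 in PBS distal, 1213 under IL-13, 1953 under TSLP, and 1074 and 839 in the TGF-beta mice. TSLP lay 1.17 above PBS local, the second largest difference of the set. Parp14, an ADP-ribosyltransferase, was at 0.83, while Ifi30, a lysosomal reductase, was at 0.18, Ifi35 at 0.10 and Ifi27l2a at 0.06.

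**Figure D2:**
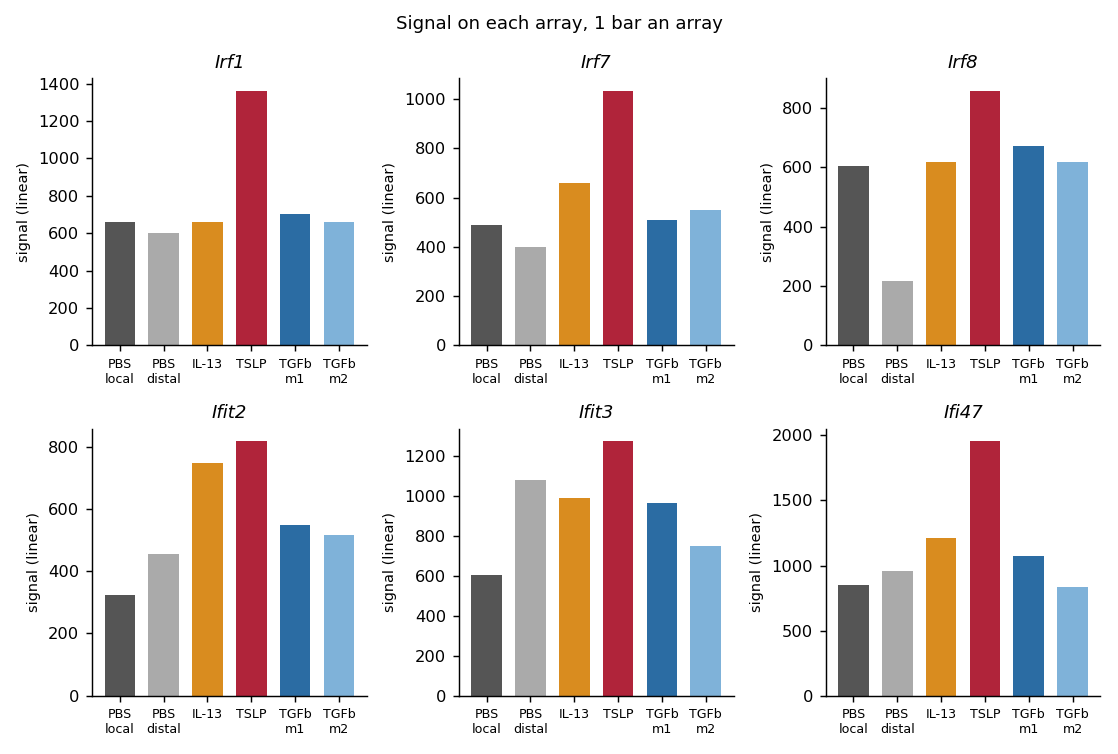
Linear signal on each of the 6 arrays (1 bar an array, m1 and m2 the TGF-beta mice) for the 6 members at least 2-fold apart from PBS local in some comparison, with each panel on its own axis from 0. TSLP is the highest bar for all 6 genes, Irf8 is lowest in PBS distal at 218, and Ifit2 and Ifit3 are lowest in PBS local at 323 and 607.

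The TSLP differences have no replicate of their own. In a limma fit (a linear model with the spread shared across genes) whose only spread came from the 2 TGF-beta mice, 12 of the 31 members had an unadjusted p below 0.05 for TSLP minus PBS local, against 3.37% of all genes. After Benjamini-Hochberg adjustment over 7943 genes limma called 0 members and 0% of all genes, with a smallest adjusted p of 0.907 over all genes. With PBS distal in place of PBS local as the control, 30 of 31 members lay above 0, against 49.1% of all genes, with a median of 0.61. Stat2 and Eif2ak2, below the array's median in PBS distal, are among the 30, so their direction partly follows from the filter. Ifi47, Irf1, Irf7, Irf8 and Samhd1 were then at least 2-fold higher, against 5.12% of all genes, and Ifit2 was at 0.80. The other Zbp1 probe set, which does not stand for its gene, lay at 1.25. That comparison mixes the cytokine with the pump outlet and the body site.

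IL-13 gave a smaller shift with a different order of genes. The median was 0.21, against -0.07 over all genes, and 26 of 31 members lay above PBS local, against 40.0% of all genes. Eif2ak2, among the 26, passed the filter on the TSLP and IL-13 arrays alone. On the probe sets that stand for the genes, 1 member was at least 2-fold higher, Ifit2 at 1.14, against 1.35% of all genes, and the other Rsad2 probe sets lay at 1.11 and 0.63. Against PBS distal Ifit2 was at 0.68, and the 1 member at least 2-fold higher was Irf8, at 1.39, against 4.72% of all genes. In the comparison with PBS local, Ifit2 was followed by Rsad2 at 0.84, Ifit1 at 0.71, Ifit3 at 0.68 and Ifi204 at 0.64. Below PBS local were Stat2 at -0.46, Adar at -0.37, Ifi35 at -0.34, Oas2 at -0.15 and Irf1 at -0.002. The transcription factors had a median of 0.03 and the effectors 0.34. With the borrowed spread, the smallest adjusted p of a member by limma was 0.932.

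TSLP and IL-13 can be set side by side without the shared control. Of the 31 members, 25 were higher under TSLP than under IL-13, against 58.3% of all genes, and the median difference was 0.24, against 0.06 over all genes. Irf1 was the single member at least 2-fold higher, at 1.01, against 0.818% of all genes. Oas2 followed at 0.81, Stat2 at 0.75, Oasl2 at 0.72, Parp14 at 0.70, Ifi47 at 0.67 and Irf7 at 0.62. Stat2 was below its array's median under IL-13 and was counted through the TSLP array alone. Its other probe set, dim on every array, lay at 0.08. By contrast, Ifit2 differed by 0.12, Bst2 by -0.05, Ifi204 by -0.04, Isg20 by -0.07 and Rsad2 by -0.11, so those genes were nearly level on the 2 arrays. Each value compares 1 array with 1 array. With the borrowed spread limma called 0 genes. Its smallest adjusted p was 0.943, and 5 members had an unadjusted p below 0.05, against 4.14% of all genes.

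**Figure D3:**
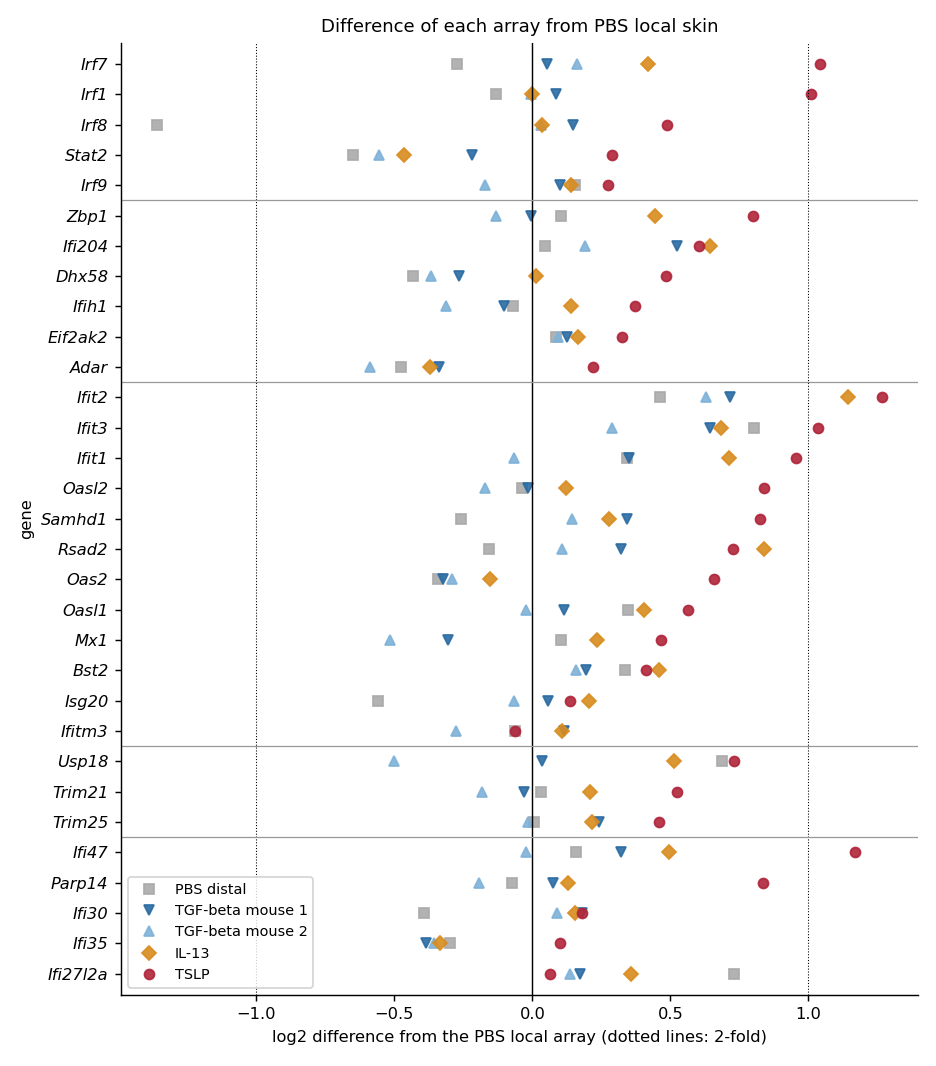
Log2 difference from the PBS local array (horizontal axis) for each of the 31 counted members (vertical axis, grouped by role), with 1 symbol for TSLP, IL-13, PBS distal and each TGF-beta mouse and dotted lines at 2-fold. TSLP symbols lie to the right of 0 for 30 genes, while the TGF-beta mice lie on both sides.

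TGF-beta, the one group with replicates, did not move the set to one side. The median over members was 0.04, or 0.10 in mouse 1 and -0.06 in mouse 2, against -0.05 over all genes. In both mice 11 members lay above PBS local, against 27.9% of all genes, and 10 lay below, against 42.4%. Of the 11, Eif2ak2 has another probe set at -0.46, and Rsad2 has others at -0.15 and 0.42. No member was at least 2-fold higher in both mice, against 0.189% of all genes. Ifit2 had the largest positive difference, 0.67 ± 0.06 (SD, n = 2), with an SE of 0.15 in limma and an adjusted p of 0.863. It was the 1 member with an unadjusted p below 0.05, against 4.60% of all genes, and limma called 0 members and 0% of all genes after adjustment.

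The members below PBS local in both TGF-beta mice were led by Adar at -0.46 ± 0.18 (SD, n = 2), Mx1 at -0.41 ± 0.15, Stat2 at -0.39 ± 0.24 and Ifi35 at -0.37 ± 0.02. Stat2 was below its array's median in PBS local and in both TGF-beta mice, and its other probe set lay at -0.16. Adar was below the median in mouse 2. Usp18 was at -0.23 ± 0.38, which differed by less than the spread between the mice. That SD of 0.38 was the largest in the set, and Ifi35 had the smallest. TGF-beta mouse 2 had the lowest signal of the 6 arrays for 14 members, against 17.2% of all genes, among them Ifit1, Ifi47, Mx1 and Zbp1.

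The TSLP array also lay above both TGF-beta mice. Of 31 members, 29 were higher than in mouse 1 and in mouse 2, against 42.0% of all genes. The median was 0.58, or 0.48 against mouse 1 and 0.68 against mouse 2. Stat2 and Eif2ak2, below the array's median in both TGF-beta mice, are among the 29, so their direction partly follows from the filter. On the probe sets that stand for the genes, no member was 2-fold higher than both, against 0.516% of all genes. Oas2 came closest, at 0.98 over mouse 1 and 0.95 over mouse 2. It was followed by Irf1 at 0.93 and 1.01, Irf7 at 0.99 and 0.88, Oasl2 at 0.85 and 1.01, and Ifi47 at 0.85 and 1.19. The other Zbp1 probe set lay further off, with 614 under TSLP against 256 and 183 in the TGF-beta mice, a mean difference of 1.39. In limma 17 of the 31 members had an unadjusted p below 0.05, against 7.21% of all genes, with Oas2 lowest at 0.00297. After adjustment limma called 0% of all genes, and the smallest adjusted p was 0.685, shared by members such as Oas2 and Irf1. The single TSLP array was assumed to vary as the TGF-beta mice do.

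IL-13 set against the TGF-beta mice gave a median of 0.21 over members, against -0.03 over all genes, with Usp18 at 0.75 and Mx1 at 0.64. Of the 31 members, 23 were higher under IL-13 than in both mice, against 26.1% of all genes. Eif2ak2, among the 23, passed the filter on the TSLP and IL-13 arrays alone. Limma called 0 genes there too, with a smallest adjusted p of 0.820. An unadjusted p below 0.05 was found for 4 members, against 2.34% of all genes.

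Between the PBS arrays the set had no common direction. The median for PBS distal minus PBS local was -0.04, against -0.02 over all genes, and 15 of 31 members were higher, against 48.1% of all genes. Irf8 was at least 2-fold lower in distal skin, at -1.36, against 3.61% of all genes, and 0 members were at least 2-fold higher, against 0.957%. A second Irf8 probe set was dimmer and lay at -0.35 in the same comparison. Limma with the borrowed spread gave Irf8 an adjusted p of 0.276, or 0.0690 after quantile normalization. At the top, Ifit3 was 0.80 higher in distal skin, Ifi27l2a 0.73 and Usp18 0.69. Ifi27l2a was brightest there, with 6913 against 4158 in PBS local, 5329 under IL-13, 4348 under TSLP, and 4689 and 4571 in the TGF-beta mice. Neutrophil and B cell markers were also lower in distal skin, with summed signals of 839 against 4594 and 1141 against 2067. So were all 11 counted monocyte and macrophage markers, with a median of -0.47, all 5 of NK cells, at -0.68, and all 4 of mast cells, at -1.01. Keratinocyte markers went the other way, with 6 of 6 higher and a median of 0.35, and T cell and dendritic cell markers were split. The part of these cells in the differences was not tested.

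Upstream of the set, the interferon genes that could be measured were at the floor of the array. Of 18 listed, 9 have a probe set of their own, and Ifnk, Ifne, Ifnl2 and Ifnl3 are among those without. All 9, 7 of the alpha family with Ifnb1 and Ifng, stayed below the median on every array. Ifng ran from 5.54 in PBS distal to 30.2 under TSLP, with 9.30 in PBS local and 7.34 under IL-13, a range in which values have no firm order. Of the receptor chains, 5 of 6 listed were counted and none was 2-fold apart in the cytokine comparisons with PBS local. Under TSLP their median was 0.08, with Ifnar1 at 0.05, Ifnar2 at -0.01, Ifngr1 at 0.08, Ifngr2 at 0.32 and Il10rb, a chain shared with the interferon-lambda receptor, at 0.56. The 12 counted genes of interferon induction and signalling had a median of 0.25 under TSLP, -0.02 under IL-13 and -0.18 under TGF-beta. In this group Ikbke, a kinase that activates IRF factors, was at 0.53 under TSLP and Tbk1, its relative, at -0.52. Feedback inhibitors had a median of -0.05 under TSLP over 4 counted genes, and Socs1 was below the median on every array. Socs3 was at 0.34 under TSLP and 0.59 under IL-13, and the other counted inhibitors lay below PBS local under both. Under TGF-beta all 4 lay below PBS local in both mice, with a median of -0.38.

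A list of targets typical of interferon-gamma, none of them a member, lay further from PBS local under TSLP than the members did. Of 18 listed, 14 were counted. All 14 were higher under TSLP, against 48.6% of all genes, and 9 of them at least 2-fold, against 0.995%. The median was 1.48 beside 0.52 for the members. Gbp6 and Ciita reached their array's median only under TSLP, at 416 and 186, so they were counted through that array and their direction partly follows from the filter. Cxcl9, a T cell chemokine, had 202 in PBS local, 141 in PBS distal, 332 under IL-13, 2473 under TSLP, and 349 and 212 in the TGF-beta mice. TSLP stood above all 5 other arrays, by 3.45 over PBS local and 2.80 over IL-13. The guanylate-binding protein genes Gbp6, Gbp2 and Gbp3 were at 1.83, 1.72 and 1.43, and Igtp, Iigp1 and Irgm2, which encode GTPases of the same family as Ifi47, at 1.77, 1.77 and 1.53. The antigen-processing genes Psmb8, Psmb9 and Tap1 were at 0.49, 0.70 and 0.53. Under IL-13 the list had a median of 0.24 with Cxcl10 at least 2-fold higher, at 1.32, and under TGF-beta 0.08. The list was drawn up with earlier results of these arrays known, so its direction under TSLP is a description, and the gap between the lists was not tested.

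**Figure D4:**
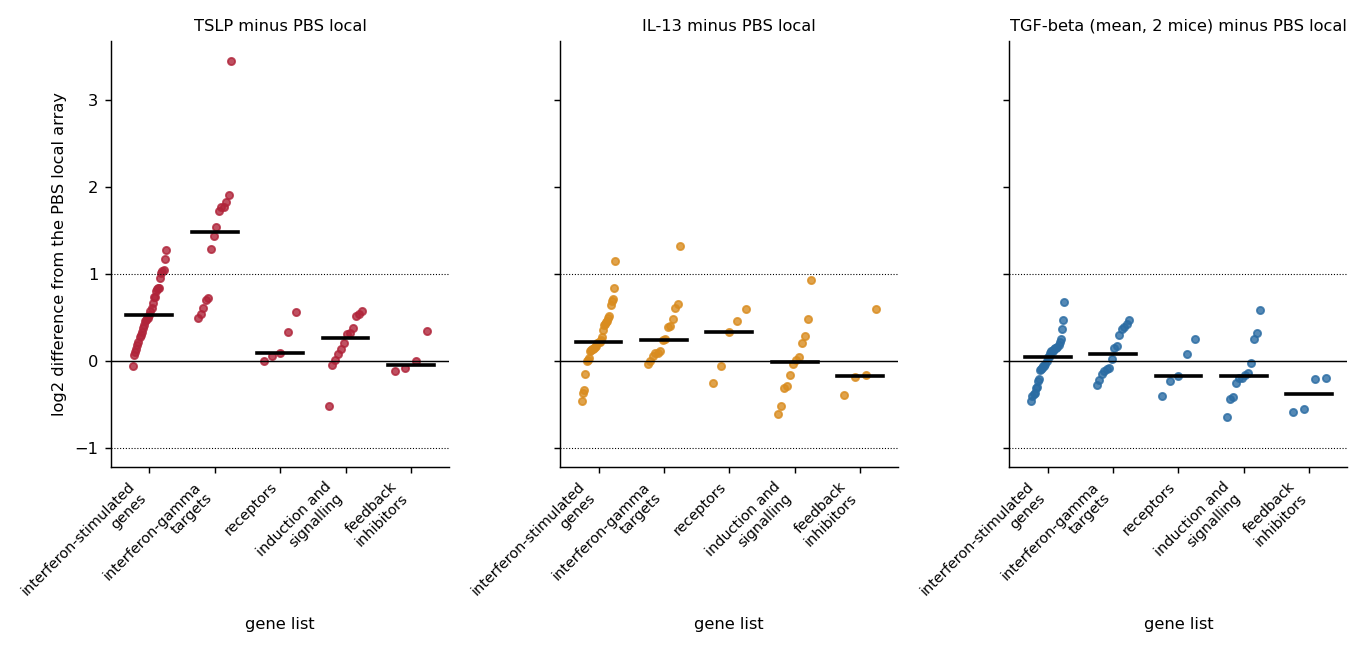
Log2 difference from the PBS local array (vertical axis) for TSLP, IL-13 and the mean of the 2 TGF-beta mice, with 1 point a gene in 5 lists and a black bar at each list's median. Under TSLP the interferon-gamma targets have a median of 1.48 and the interferon-stimulated genes 0.52, while under TGF-beta these lists lie at 0.08 and 0.04.

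Markers of cells that make or receive interferon moved with some of these arrays. Of 7 measured NK cell markers, 5 were counted, all 5 were higher under TSLP than in PBS local and 2 of them, Gzma and Gzmb, at least 2-fold. Their summed signal was 794 in PBS local, 478 in PBS distal, 1133 under IL-13, 1722 under TSLP, and 1121 and 1346 in the TGF-beta mice, so the TGF-beta mice were also above PBS local. The defining marker Ncr1 and the cytolytic gene Prf1 were below the median on every array. Of 9 measured T cell markers, 2 were counted, with sums between 324 and 444 and TSLP highest, while Cd3e, Cd4 and Cd8a were below the median throughout. The sum of 11 monocyte and macrophage markers was 38109 under TSLP and 37433 in PBS local, within the range of 29362 to 44828 over the 6 arrays. Gene by gene, 8 of the 11 lay above PBS local under TSLP, with a median of 0.17, led by Cd14 at 0.97, Fcgr1 at 0.55, Ccr2 at 0.47 and Mertk at 0.43. Plasmacytoid dendritic cell markers, from a cell type known for its interferon output, had 4 of 7 counted and a median of -0.05 under TSLP. Below PBS local under TSLP lay 6 of 6 keratinocyte markers, with a median of -0.25, 6 of 6 fibroblast markers, at -0.30, and 9 of 9 ribosomal protein genes, at -0.10. The part of these cells in the result was not tested, nor was that of the pancreas genes, which had a median of 1.60 under TSLP and 1.75 under IL-13.

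Members with and without a promoter match overlapped widely in their differences, and the gap between them was not tested. Of the counted members, Ifi204, Usp18, Oas2, Mx1, Zbp1, Dhx58, Parp14 and Ifi27l2a have no window and are left out here. Of the counted members with a window, the 9 with an ISRE match had a median of 0.41 under TSLP, from -0.06 for Ifitm3 to 1.04 for Ifit3, and the 14 without had 0.53, from 0.10 for Ifi35 to 1.27 for Ifit2. The 10 with a GAS match had 0.37 and the 13 without 0.57. Under IL-13 the 4 with a STAT6 match had 0.17 and the 19 without 0.21. Ifit2 and Irf7, among the largest differences, hold no ISRE match in their windows, which says only that these letters are not in the bases searched.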

How the data were processed

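Total RNA from 6 mouse skin samples was hybridised to single-colour arrays. The authors deposited linear intensities for every probe set, and MAS5 is the tool named in the submitters' processing notes. Its version and a genome build are not given in the sources used here. After dropping 2% of values from either end, array means were 500.16 to 500.2, so a common scale had been set. The table holds 22690 probe sets, of which 20380 name 1 gene in the platform annotation, and 20351 were matched by gene number to RefSeq symbols of GRCm38.p6. Probe sets naming several genes were left out.

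From these intensities, log2(signal + 27.4) was computed, the offset being the 25th percentile of all values. Each gene took its probe set with the highest mean log2 value. Genes at or above the array's own median on at least 1 of 6 arrays were kept. A difference of 1 or more in log2 units, in both mice for TGF-beta, met the size rule. limma 3.58.1 under R 4.3.3 fitted all 6 arrays in 5 groups with an intensity trend, 1 residual and 3.04 prior degrees of freedom, and Benjamini-Hochberg adjustment at 0.05. The fit was tested on simulated data. The labels name the TGF-beta arrays as separate mice, and p-values measure only the spread between those 2. Signals on all arrays are given for each member at least 2-fold apart in a comparison of the groups, and for some others chosen after their values were seen. Members and lists were chosen with earlier results of these data known. Alternatives changed the offset, scaling, filter, probe-set rule, control and test. The number of arrays limits the precision.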

Additional observations from a re-analysis of the deposited data

How the results depend on the processing

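No paired analysis was possible because only the TGF-beta group has more than 1 array and the groups share no second replicate number. Over the alternatives run, the median over members kept its sign under TSLP (0.48 to 0.61), IL-13 (0.19 to 0.28) and TSLP minus IL-13 (0.22 to 0.25), while that of PBS distal minus PBS local ran from -0.07 to 0.02. For TGF-beta minus PBS local the median ran from -0.06 to 0.10 when 1 mouse was left out, and the count of members 2-fold apart stayed at 0 in each case. An offset of 64 left 2 members at least 2-fold apart under TSLP and 0 in TSLP minus IL-13. Quantile normalization, or leaving out probe sets ending in s_at, x_at or a_at, also gave 0 members in TSLP minus IL-13. With the mean of all probe sets, 0 members were 2-fold apart between PBS distal and PBS local, and Irf8 lay at -0.85. With PBS distal as the control, 1 member was 2-fold apart in both TGF-beta mice, Irf8. limma with the borrowed spread called 0 members for TSLP, IL-13 and PBS distal against PBS local and for TSLP minus IL-13 in every setting. Over all genes it called 1, 1 and 45 for TSLP, IL-13 and PBS distal against PBS local after quantile normalization, with smallest adjusted p-values of 0.0328, 0.0335 and 0.00048, against 0 of each otherwise, except 1 for PBS distal under both filters on the compared arrays. The tests of TGF-beta minus PBS local, TSLP minus TGF-beta and IL-13 minus TGF-beta called 0 genes in every setting. Without 1 mouse no residual degree of freedom is left. The cytokine comparisons with PBS distal are not among these tests. With the main processing limma called a few genes there, but no member. The causes of these shifts were not tested. Signals near the array floor, as for the interferon genes, have no firm order, and 4 groups of 1 array allow no error.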

Other observations

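The response that IL-13 is known for was present on its array and followed another order than the interferon-stimulated genes. Of 13 listed genes that IL-4 and IL-13 switch on through STAT6, 9 were counted, with a median of 1.42 under IL-13, 0.40 under TSLP and -0.11 under TGF-beta. Arg1, the arginase of alternatively activated macrophages, had 474 in PBS local, 942 in PBS distal, 5149 under IL-13, 1556 under TSLP, and 1880 and 730 in the TGF-beta mice. IL-13 was the highest array for it. In TSLP minus IL-13 this list had a median of -0.55, with 4 genes at least 2-fold lower under TSLP, whereas the median of the interferon-stimulated genes was 0.24.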
